A study of Arabidopsis thaliana with 6 samples.

Results

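Plant defensins are small secreted peptides whose fold is held together by disulfide bonds between conserved cysteines. Some, such as PDF1.2, are antifungal and are induced through jasmonate and ethylene signalling, and others are made constitutively in flowers and seeds. Arabidopsis also carries many LCR (low-molecular-weight cysteine-rich) and SCRL (SCR-like) genes, the second named after the pollen coat ligand SCR of Brassicaceae self-incompatibility. Related cysteine-rich peptides of the ovule guide pollen tubes, so the families are of interest in pollinated flowers.

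The members were all probe sets with 1 annotated gene whose symbol is LCR, SCRL or PDF followed by digits. The rule used gene names and no measured value, and it found 12 probe sets for 12 genes, of the 13356 genes that probe sets with 1 annotated gene stand for. Of these 8 carried an LCR symbol, 4 a PDF symbol and 0 an SCRL symbol, so the description covers LCR and PDF genes and no SCRL gene. Such a symbol belongs to 118 genes of the reference table (81 LCR, 28 SCRL and 9 PDF), and the genes without a listed probe set were not analysed here. Among the 9 reference PDF genes are PDF1 and 2 genes called PDF2 that are protodermal factors or a prefoldin; none of these was among the members. PDF1.2b, whose symbol ends in a letter, fell outside the rule.

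The arrays compared pollinated stage 14-15 flowers of plants homozygous for pop2-1, an allele of the GABA transaminase gene POP2, with wild-type flowers of the same stage, to find transcripts that differ in flowers rich in endogenous GABA. Both groups were of the Ler accession, with 3 biological replicates of pop2-1 and 3 of wild type named in the titles. Protocol fields describe wild-type plants in the words used for the mutant, so groups come from titles alone. The level of POP2 itself was not analysed here. The labels do not say whether replicates came from separate plants or growth batches, so p-values measure the spread between these samples. Values are MAS5 signals, a linear brightness per probe set on Affymetrix ATH1 arrays that were each scaled to the same average.

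Median signals of the arrays were 209.3 to 228.9. The actin 3'/5' signal ratio, a measure of RNA integrity and labelling, was 9.73 on pop2-1 replicate 2 and 1.72 to 2.93 on the other 5 arrays. Across all probe sets tested with limma on log2(signal + 16), 63 of 13647 passed at an adjusted p under 0.05. The 20 that rose in pop2-1 are 0.147% of those tested and the 43 that fell are 0.315%. Of 9 floral organ identity genes listed to check the tissue 0 were named on the array. The pistil and ovule genes SPT, ALC and INO were, and their 18 signals were all above the limit of 126.2 that divides expressed from dim (the 40th percentile of the mean log2 signal, as a signal).

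The reference table sorts the 12 members by name. LCR69, LCR68, LCR72, LCR66, PDF2.1 and PDF2.5 form the PDF2 class, since the 4 LCR genes among them have the other names PDF2.2, PDF2.3, PDF2.6 and PDF2.4 in that order. LCR67 (PDF1.1), PDF1.2 and PDF1.4 form the PDF1 class. LCR24, LCR59 and LCR80 have no PDF name. A mean signal over 6 arrays above 126.2 was reached by 3 of 6 PDF2-class genes, by 0 of 3 PDF1-class genes and by 2 of the 3 others. These 5 expressed members had means of 13181 (LCR69), 3958 (LCR68), 649 (LCR72), 169 (LCR80) and 161 (LCR24). The 7 dim members had means of 8.94 (LCR67) to 45.4 (LCR59). Just above that limit lay LCR24 and LCR80, and the nearest below it were LCR59 and PDF1.2 (36.6). Signals of different probe sets depend on their probes, so the order of these means is not an order of transcript levels.

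The expressed PDF2-class genes are neighbours. In the reference table LCR69, PDF2.1, LCR68, LCR71, LCR72 and LCR73 lie within 1 run of 9 genes, from AT2G02100 to AT2G02147, and 4 of these 6 were named on the array. LCR71 is annotated there as a transcribed pseudogene. LCR24 lies in another group of its kind, between LCR21 and LCR26 with LCR22 and LCR27 close by, and LCR59 lies near LCR61, LCR63 and LCR19. Paralogs in such runs can share sequence, and how far a probe set also reads its neighbours was not tested.

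LCR24 was lower in pop2-1 flowers and was the 1 member that passed the test. Its signals were 68.7, 22.0 and 66.1 in pop2-1 replicates 1 to 3, against 239.8, 265.6 and 302.0 in wild-type replicates 1 to 3. All 3 pop2-1 samples were far below the lowest wild-type sample. Means over 3 arrays (± SD) were 52.3 ± 26.3 in pop2-1 and 269 ± 31.2 in wild-type flowers. On the log2(signal + 16) scale LCR24 fell by 2.15 ± 0.31 (limma SE, adjusted p = 0.0247). That is 1 of 5 expressed members, beside 0.315% of all tested probe sets, but nothing is read from this share because LCR24 passed the filter on dim probe sets through its wild-type signal.

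The pop2-1 signals of LCR24 lay under 126.2 on all 3 arrays. They lay within the range of the dim members, and the size of the difference depends on the pseudocount, with a log2 value of -2.50 at a pseudocount of 1 and -1.54 at 64. The call did not hold in 4 of the 6 fits that left out 1 array. Leaving out pop2-1 replicate 3 gave an adjusted p of 0.111. Leaving out wild-type replicate 1, 2 or 3 gave 0.135, 0.115 or 0.184. The call held without pop2-1 replicate 1 (0.00619) and without pop2-1 replicate 2 (0.00691). Replicate 2 had the highest actin ratio and the lowest LCR24 signal, and without it the log2 difference was -1.77. With no filter the adjusted p was 0.0533. When the filter used the mean of log2 signals, LCR24 was not tested, since its mean on that scale corresponds to a signal of 119.

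The 1 tested marker of young seeds, BAN, was also among the 43 probe sets called lower in pop2-1. All of these are lower in the same group by construction, so no link to LCR24 is read from it. Of 16 listed genes of the female gametophyte and young seed 4 were named on the array, and their summed signal was 105 to 145 on pop2-1 arrays and 273 to 560 on wild-type arrays. BAN, the anthocyanidin reductase of the seed coat, made up most of that sum in wild type. BAN had 54.0, 43.5 and 71.2 in pop2-1 and 229.3, 494.3 and 457.9 in wild type. BAN fell by 2.45 ± 0.29 on the log2 scale (limma adjusted p = 0.0111). That call did not hold without pop2-1 replicate 3, without wild-type replicate 2 or without wild-type replicate 3. The pop2-1 signals of BAN also lay under 126.2, so it too passed the filter through its wild-type signal. The egg cell gene EC1.2 and the endosperm genes AGL62 and IKU2 were too dim to test, and each overlapped between the groups. EC1.2 had 44.1 to 53.6 in pop2-1, against 7.86 to 47.9 in wild type. AGL62 had 13.8 to 33.8 against 17.5 to 31.4, and IKU2 had 2.76 to 7.09 against 4.38 to 6.73. The lower sum in pop2-1 thus rested on BAN. In whole flowers, fewer cells of a type and less RNA per cell cannot be told apart. The part of seed or ovule tissue in the difference of LCR24 was not tested.

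**Figure D1:**
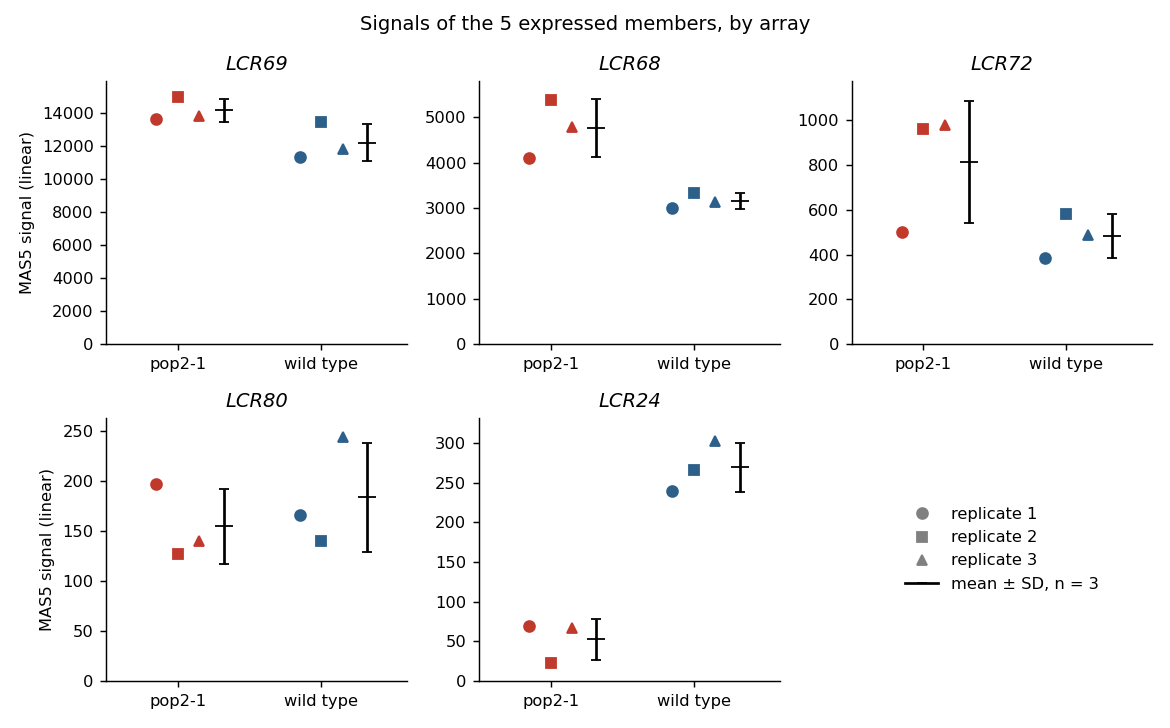
MAS5 signals (linear scale from 0) of the 5 expressed members on each of 3 pop2-1 arrays (red, left) and 3 wild-type arrays (blue, right). Marker shape gives the replicate number and the bar the mean ± SD of 3 arrays. The groups are apart for LCR69, LCR68 and, in the other direction, LCR24, and they overlap for LCR72 and LCR80.

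The PDF2-class genes of the run had higher mean signals in pop2-1, without passing the test of the whole table. LCR68 had 4109, 5390 and 4787 in pop2-1 replicates 1 to 3, against 2993, 3339 and 3130 in wild-type replicates 1 to 3. Its groups did not overlap, and replicate 2 was the highest array of both. Means over 3 arrays (± SD) were 4762 ± 641 in pop2-1 and 3154 ± 174 in wild-type flowers, a log2 difference of 0.58 ± 0.12 (limma SE, adjusted p = 0.0788).

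Arrays with the same replicate number deviated together from their group means (r = 0.172 to 0.418), so the number was also fitted as a block. Arrays of unlike number reached an r of 0.140, so the pairing behind the blocked results is uncertain. With that replicate block LCR68 rose in pop2-1 (log2 0.58 ± 0.09, limma adjusted p = 0.0213). The ratio of pop2-1 to wild type was 1.37 in pair 1, 1.61 in pair 2 and 1.53 in pair 3. The blocked call was kept without pair 1 (adjusted p = 0.000221), and did not hold without pair 2 (0.187), without pair 3 (0.0755) or with no filter (0.0618). Without the block, LCR68 passed in 1 of the 6 fits that left out an array, the one without pop2-1 replicate 1 (0.00903). On pop2-1 replicate 2, which had the highest actin ratio, LCR68 was also highest. With that array left out the log2 difference was 0.49 (adjusted p = 0.0856), and with the actin ratio as a covariate it was 0.48 (adjusted p = 0.0306).

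LCR72 had 501, 962 and 978 in pop2-1 replicates 1 to 3, against 386, 582 and 487 in wild-type replicates 1 to 3. Replicate 1 was the lowest array of both groups, and pop2-1 replicate 1 lay below wild-type replicate 2, so the groups overlapped. Means over 3 arrays (± SD) were 814 ± 271 in pop2-1 and 485 ± 98.1 in wild-type flowers, a log2 difference of 0.69 ± 0.25 (limma SE, adjusted p = 0.341). With the replicate block LCR72 rose (log2 0.69 ± 0.14, limma adjusted p = 0.0469), with pair ratios of 1.299, 1.65 and 2.01. Without pair 1 the blocked adjusted p was 0.000394, without pair 2 it was 0.308, without pair 3 it was 0.265 and with no filter it was 0.113. Without pop2-1 replicate 1 and without the block LCR72 also passed, at a log2 difference of 1.00 (adjusted p = 0.0153).

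LCR69 differed least of the 3. Its signals were 13646, 14982 and 13839 in pop2-1, against 11339, 13473 and 11805 in wild type. Every pop2-1 value exceeded every wild-type value, with a gap between the groups of only a small part of their spread. Means over 3 arrays (± SD) were 14156 ± 722 in pop2-1 and 12206 ± 1122 in wild-type flowers, a log2 difference of 0.22 ± 0.09 (limma SE, adjusted p = 0.394). With the replicate block it did not pass either (adjusted p = 0.170), and the pair ratios were 1.203, 1.11 and 1.17.

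PDF2.1, which lies between LCR69 and LCR68, was dim. It had 6.54, 42.9 and 27.7 in pop2-1, against 2.15, 34.3 and 4.49 in wild type. Replicate 2 was highest in both groups, which overlapped. With the replicate block 2 of the 5 expressed members were called higher and 1, LCR24, lower, against 0.799% and 1.1% of all tested probe sets. LCR24 had a blocked adjusted p of 0.00881, which was 0.0771 without pair 2. With no block 2 of the 5 had all pop2-1 signals above wild type and 1 all below, against 9.88% and 8.06% of tested probe sets. The member below was again LCR24. Nothing is read from the lower shares, since LCR24 passed the filter on dim probe sets through its wild-type signal.

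Pollen markers stood higher on some of the same arrays. Of 14 listed pollen genes 6 were named on the array, and their summed signal was 1346, 2442 and 1946 in pop2-1 replicates 1 to 3, against 1171, 1551 and 1340 in wild-type replicates 1 to 3. In both groups replicate 1 was the lowest array of this sum, as it was for LCR68 and LCR72. Replicate 2 was the highest, as it was for LCR68 but, in pop2-1, not for LCR72. LCR69, which did not pass, and the dim PDF2.1 also had replicate 1 lowest and replicate 2 highest in both groups. Replicate 1 also had the lowest median signal over all probe sets in each group (213.6 in pop2-1, 209.3 in wild type). Replicate 2 had the highest actin ratio of each group (9.73 and 2.93). Nothing about pollen is therefore read from the shared order. None of the 5 tested pollen genes passed in limma, and 1 had an unadjusted p under 0.05. That gene was MGH3, a histone of male gametes, at 0.53 ± 0.23 (adjusted p = 0.412). The part of pollen RNA in the differences of LCR68 and LCR72 was not tested.

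LCR80, the remaining expressed member, did not pass the test. It had 197.3, 126.7 and 139.7 in pop2-1, against 165.9, 140.2 and 244.3 in wild type. The groups overlapped, and wild-type replicate 3 was the highest array. Means over 3 arrays (± SD) were 155 ± 37.6 in pop2-1 and 183 ± 54.2 in wild-type flowers, a log2 difference of -0.21 ± 0.24 (limma SE, adjusted p = 0.748). Without wild-type replicate 3 that difference was -0.00499, and with the replicate block and pair 3 left out it was 0.05. The median difference over the 5 expressed members was 0.22, and over all tested probe sets it was 0.03.

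**Figure D2:**
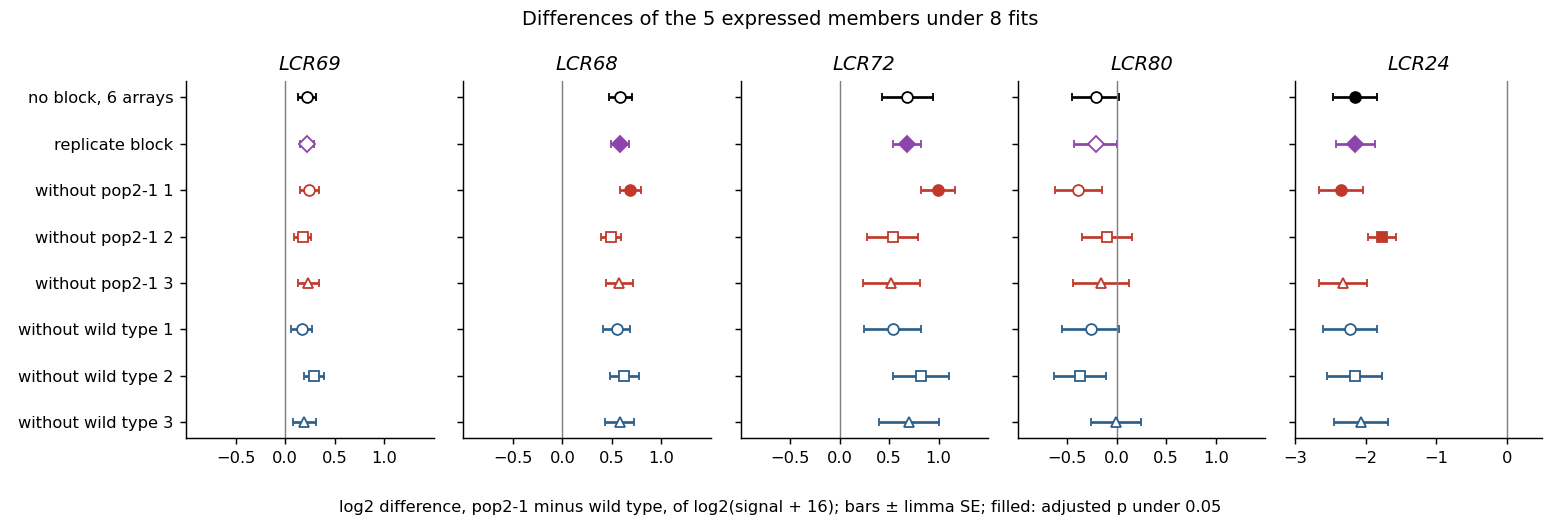
Log2 differences (pop2-1 minus wild type, on log2(signal + 16)) of the 5 expressed members in 8 limma fits: all 6 arrays, the replicate block, and each array left out. Bars are ± limma SE and filled symbols have an adjusted p under 0.05; LCR24 is filled in 4 of the 8 fits and LCR69 and LCR80 in none.

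The 7 dim members gave 42 signals, from 1.18 to 96.2, and 0 of them exceeded 126.2. They were not tested in the main comparison, and without detection calls it is not known whether they lay above background. LCR59 and LCR67 had all pop2-1 signals below all wild-type signals, 2 of the 7, which was so for 3.78% of the dim probe sets of the array. In the other direction it was 0 of the 7, against 8.69%. The other 5 overlapped. LCR59 had 26.3, 8.21 and 12.7 in pop2-1, against 36.2, 92.7 and 96.2 in wild type. Wild-type replicate 1 lay well below the other wild-type arrays and close to the highest pop2-1 array. LCR67, whose peptide PDF1.1 is an antifungal protein of seeds, had 1.504, 3.93 and 3.26 in pop2-1, against 14.4, 18.7 and 11.8 in wild type. In the fit with no filter, LCR59 had a log2 difference of -1.48 ± 0.37 (limma SE, adjusted p = 0.216) and LCR67 one of -0.71 ± 0.23 (adjusted p = 0.360).

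PDF1.2, the defensin used as a marker of combined jasmonate and ethylene signalling, was dim in both groups. It had 20.4, 32.7 and 48.3 in pop2-1, against 44.0, 25.3 and 49.1 in wild type, and the groups overlapped over most of their range. PDF1.4, another gene of its class, ran from 13.7 to 44.2 in pop2-1 and from 29.9 to 38.3 in wild type. PDF2.5 ran from 30.0 to 40.8 in pop2-1 and from 9.36 to 43.2 in wild type. LCR66 ran from 12.02 to 49.8 in pop2-1 and from 1.18 to 18.1 in wild type, with pop2-1 replicate 3 far above the rest.

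**Figure D3:**
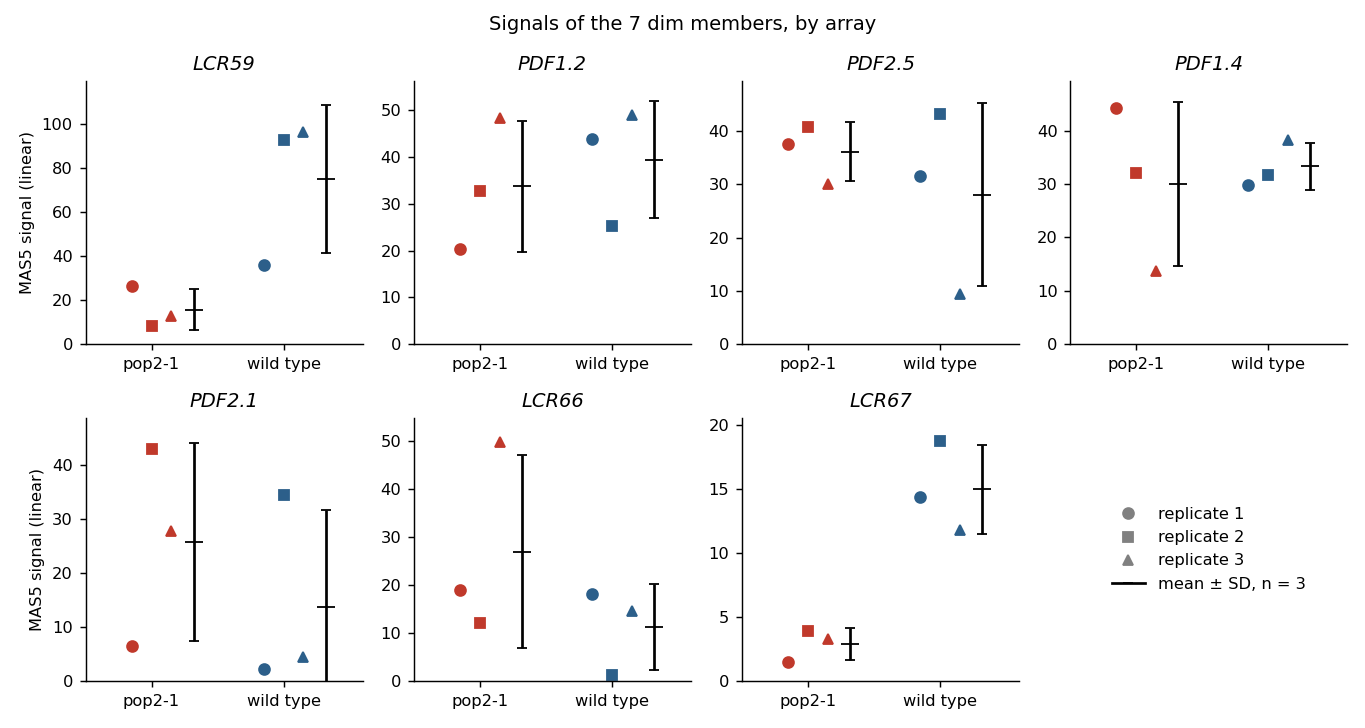
MAS5 signals (linear scale from 0, a separate scale in each panel) of the 7 dim members on each of 3 pop2-1 arrays (red, left) and 3 wild-type arrays (blue, right), with mean ± SD of 3 arrays. The SD bar of PDF2.1 in wild type is clipped at 0. The groups are apart for LCR59 and LCR67, and overlap for the other 5.

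The partners of defensins in signalling were thinly covered by the probe annotation used here. Of 24 genes listed for jasmonate, ethylene and salicylate defence 2 were named and tested, and 0 passed in limma, with 0 at an unadjusted p under 0.05. EIN3, the transcription factor at the base of the ethylene response, had 2487, 1793 and 2336 in pop2-1, against 2288, 2337 and 2307 in wild type (log2 -0.08 ± 0.13, adjusted p = 0.826). THI2.1, a jasmonate-inducible thionin and thus another cysteine-rich defence peptide, had 10072, 12789 and 8412 in pop2-1, against 8836, 11109 and 9716 in wild type (log2 0.06 ± 0.15, adjusted p = 0.891). Both genes overlapped between the groups.

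Of 19 other cysteine-rich peptide genes 6 were named and 3 tested, THI2.1 among them, and 0 passed, with 0 at an unadjusted p under 0.05. STOMAGEN, a peptide that promotes stomata, had 403 to 643 in pop2-1, against 413 to 458 in wild type (log2 0.28 ± 0.18, limma adjusted p = 0.550). AT5G59845 had a log2 difference of -0.19 ± 0.20 (adjusted p = 0.722). The egg cell genes EC1.2 and EC1.5 and the thionin THI2.2 were dim. The median over the 3 tested genes was 0.06, against 0.03 over all tested probe sets.

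Of 18 genes listed as pollen-pistil receptors and self-incompatibility-type kinases 8 were named and 6 tested, and 0 passed in limma, with 1 at an unadjusted p under 0.05. That gene was AT4G08850, with 687, 524 and 499 in pop2-1, against 891, 959 and 1161 in wild type. Its groups did not overlap, and the log2 difference was -0.80 ± 0.16 (limma adjusted p = 0.0730). With the replicate block it fell (limma adjusted p = 0.0411), the 1 of the 6 that was called, beside 1.1% of all tested probe sets called lower. That blocked call did not hold without pair 2. FER, the receptor kinase of pollen tube reception in the ovule, had 2075 to 2438 in pop2-1, against 2135 to 2168 in wild type (log2 0.05 ± 0.10, adjusted p = 0.879). The pollen tube receptor kinase ANX2 had a log2 difference of 0.49 ± 0.24 (adjusted p = 0.455), AT2G21480 one of 0.49 ± 0.22 (0.421) and AT4G39110 one of 0.42 ± 0.22 (0.488). ANX2, AT2G21480 and AT4G39110 are also tested genes of the pollen list above, so the 2 lists share these signals. The median over the 6 was 0.35. In the pistil and ovule list 0 of 3 tested genes passed, with 0 at an unadjusted p under 0.05: log2 differences were 0.31 ± 0.20 for INO, 0.16 ± 0.19 for SPT and -0.22 ± 0.13 for ALC. The 2 tapetum and anther genes named, AMS and AT5G07230, were dim on all arrays, with summed signals of 28.2 to 40.3 in pop2-1, against 8.67 to 72.6 in wild type.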

How the data were processed

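The deposited values are linear intensity signals, which the authors computed with MAS5 according to the submitters' processing notes; the version, scaling target and detection calls are not given in the sources used here. The 2% trimmed mean was 500.0 on each array, so each difference is relative to an array's average. Precision is limited by the 3 arrays per group. Of 22810 probe sets 64 were controls, 13513 had 1 annotated gene, 503 had several and 8730 were not listed in the annotation. Of those with 1 gene 13436 were found by Entrez number in the reference table of assembly TAIR10.1. No coordinates are given because the files name no build.

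Signals plus 16 were log2-transformed and tested 2-sided in limma 3.58.1 (R 4.3.3; lmFit and eBayes, trend = TRUE), adjusting by Benjamini-Hochberg over the 13647 probe sets with a mean signal above the 40th percentile (129.7). All 5 expressed members passed that filter. As a check of pairing, deviations from the group means were correlated across probe sets. Arrays sharing a number gave r = 0.208, 0.418 and 0.172, all above 0.1. The numbers in the titles were therefore taken to pair the arrays. Unlike numbers gave -0.356 to 0.140, and pop2-1 replicate 1 with wild-type replicate 3 (0.140) also lay above 0.1. Pair 2 held the highest actin ratio of each group, 9.73 and 2.93, and its part in the correlation was not tested. Alternatives were the pseudocount, filter, scaling, array weights, replicate block, actin ratio as covariate and each array left out.

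Members, gene lists and tests were chosen with earlier results of these data known. Named were all expressed members, the members nearest the limit, the brightest of each family and up to 4 tested genes per list with the smallest p; other members and list genes were named for completeness. A list gene with several probe sets was read from the brightest.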

Additional observations from a re-analysis of the deposited data

How the results depend on the processing

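The number of members that passed moved with the settings. It was 1 without the block, 3 with the replicate block or array weights, and 2 with the actin 3'/5' covariate or at an adjusted p under 0.10. It was 0 under 3 other filters: none, the 60th percentile, and the mean log2 signal, where 5, 3 and 3 members had an unadjusted limma p under 0.05; the last 2 filters left LCR24 untested. Leaving out 1 array gave 0 to 3. The replicate block gave 2 with the filter on mean log2 signal, 1 with no filter, 3 without pair 1, 0 without pair 2 and 1 without pair 3. LCR24 kept its direction in all 18 alternatives that tested it and passed in 12, with an adjusted p of 8.14e-06 to 0.184. Its log2 difference was -2.15 with no filter and -1.77 under the block without pair 2, where it did not pass, and -2.35 to -1.77 with 1 array left out. LCR68 passed with the block (0.58, also with the filter on mean log2 signal, but not with no filter, adjusted p = 0.0618), array weights (0.59), the covariate (0.48) and the block without pair 1 (0.65), and ran from 0.49 to 0.69 with 1 array left out. LCR72 passed with the block (0.69, also with the filter on mean log2 signal, but not with no filter, adjusted p = 0.113), array weights (0.87) and the block without pair 1 (0.85), and ran from 0.52 to 1.00 with 1 array left out. LCR69 and LCR80 passed in none of their 21 and 20 alternatives. LCR80 changed sign under the block without pair 3, to 0.0497.

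Over all probe sets 63 passed, 41 with the filter at the 60th percentile (fewer were tested), 972 with array weights, 157 with the covariate and 152 at an adjusted p under 0.10. The replicate block gave 259, and 257 with the filter on mean log2 signal, 75 with no filter, 1553 without pair 1, 7 without pair 2 and 142 without pair 3. Leaving out 1 array gave 5 to 509. Of the 16 tested list genes 1 passed, 3 with array weights, 2 with the block under either filter and 1 with no filter, 5 under the block without pair 1, and 0 to 2 with 1 array left out. With the filter at the 60th percentile and under the block without pair 2 it was 0 in limma, with 1 and 3 at an unadjusted p under 0.05. The filter on mean log2 signal, the block with no filter and the pairs left out were chosen after seeing the data. Why the counts moved was not tested. Signal over background limits LCR24 in pop2-1 and all dim members.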
